A study of Mus musculus with 20 samples.

Results

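The genes described here are 7 genes of the lipid-laden macrophage state: Trem2, Tyrobp, Spp1, Gpnmb, Cd9, Cd63 and Lgals3. They were taken by name from a list of that state, drawn up with earlier results of these data known, and all 7 were found among the 46318 genes counted. The cells came from the bone marrow of female C57BL/6 mice and were matured into macrophages in medium with a recombinant murine growth factor. They were then treated for 24 h with the solvent DMSO, with DSHN at 50 µM, with GW3965 at 1 µM, or with DSHN and GW3965 together (the combination). DSHN is an agonist of the orphan nuclear receptor NR0B2, and GW3965 is an agonist of the liver X receptors (LXRs), which sense oxysterols. Each of the 4 groups had 5 biological replicates and 1 bulk polyadenylated RNA library per replicate. All groups shared genotype and culture, no genetic change was made, and neither the age of the mice nor their number is given in the sources used here, so p-values measure the spread between these cultures.

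As background, macrophages that have taken up much lipid, as in atherosclerotic plaques, obese fat and demyelinated brain, carry a shared set of transcripts. TREM2 is a surface receptor for lipids, lipoproteins and dying cells. It has no signalling tail of its own and pairs with the adaptor DAP12, encoded by Tyrobp, whose phosphorylated tail recruits the kinase SYK. The other 5 genes encode a secreted ligand, osteopontin (Spp1), a lysosomal and surface glycoprotein (Gpnmb), a pair of tetraspanins of the plasma membrane (Cd9) and of late endosomes and exosomes (Cd63), and galectin-3 (Lgals3), which binds β-galactosides and marks damaged lysosomes.

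In GRCm39, the build of the count files, Trem2 (GeneID 83433) lies on the plus strand of chr17:48653429-48659304 and Tyrobp (GeneID 22177) on the plus strand of chr7:30113207-30117007. Spp1 (GeneID 20750) lies at chr5:104582977-104588919, plus strand, and Gpnmb (GeneID 93695) at chr6:49013449-49044413, plus strand. Cd9 (GeneID 12527) is on the minus strand of chr6:125437229-125471723. The span of Cd9 holds 2 gene models of the opposite strand, Gm28809 and Gm26728, but none shares an exon base with it. Cd63 (GeneID 12512) lies at chr10:128731577-128748691, plus strand, and Lgals3 (GeneID 16854) at chr14:47611317-47623624, plus strand. Counts are sums over the annotated exons of each gene, UTRs included.

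The RefSeq promoter table, on the older build GRCm38.p6, held windows for 6 of the 7 genes (7 windows, since Spp1 has a pair of starts). The 250 bases before the start are shown for Trem2, Spp1 and Gpnmb, because these 3 genes had unlike patterns across the treatments as counted. Trem2 was highest in the combination, as were the mean levels of Tyrobp, Cd9, Cd63 and Lgals3, though Cd9 there did not pass against DMSO. Spp1 was below DMSO in every treated group, and Gpnmb was higher with either compound but not with both. With the correction for exon length described below, Trem2 was lower in the combination than with GW3965 (log2 difference -0.11). Tyrobp (-0.20) and Cd9 (-0.27) were then lower in the combination than in DMSO. Capitals mark a motif match, and the windows are chr17:48346151-48346400, chr5:104434861-104435110 (the first start of Spp1) and chr6:49036268-49036517, all on the plus strand and written 5′ to 3′.
Trem2: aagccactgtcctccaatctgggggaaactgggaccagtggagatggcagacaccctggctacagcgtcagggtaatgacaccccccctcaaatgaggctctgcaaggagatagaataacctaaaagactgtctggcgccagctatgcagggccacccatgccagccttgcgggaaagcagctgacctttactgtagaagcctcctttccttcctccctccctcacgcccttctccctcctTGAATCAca
Spp1: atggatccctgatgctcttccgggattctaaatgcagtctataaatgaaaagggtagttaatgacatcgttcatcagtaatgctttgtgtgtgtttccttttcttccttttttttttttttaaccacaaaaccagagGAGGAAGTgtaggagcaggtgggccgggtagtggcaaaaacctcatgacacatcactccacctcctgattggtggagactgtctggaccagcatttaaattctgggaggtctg
Gpnmb: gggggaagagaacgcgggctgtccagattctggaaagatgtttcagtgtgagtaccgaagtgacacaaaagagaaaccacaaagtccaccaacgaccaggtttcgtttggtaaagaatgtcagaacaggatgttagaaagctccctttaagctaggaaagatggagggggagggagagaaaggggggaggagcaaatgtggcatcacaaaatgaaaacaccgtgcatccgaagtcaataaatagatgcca

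Both strands of each window were searched for 4 motifs, none of which overlapped another where found. The AP-1 site TGANTCA began 9 bases before the start of Trem2, and 6.75% of 32851 promoter windows in the table hold it. The PU.1 site GAGGAAGT began 113 bases before the first start of Spp1, and 2.44% of windows hold it. The E-box CACGTG, bound by MITF and TFE factors (6.02% of windows), and the DR4 element of LXR, the perfect direct repeat spaced by 4 bases (0.0152%, 5 windows), had no match in the windows of these genes. A match describes letters only.

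All 7 genes were well detected: the lowest count of any of them in any library was 4634 (Cd9) and the highest 151026 (Gpnmb). Library totals ran from 16855029 to 23796561 counts. Levels are given as CPM (a gene's share of its library's counts, scaled with TMM factors), and comparisons between genes as RPKM, the CPM value per kilobase of exon. All 10 macrophage markers were tested, and their summed level was 16470 to 17750 CPM in DMSO, 18360 to 19700 in DSHN, 16880 to 19060 in GW3965 and 16800 to 18460 in the combination. Against DMSO 4 of them were higher and 3 lower with DSHN, 4 higher and 2 lower with GW3965, and 3 higher and 5 lower with both (as counted, Adgre1 -0.43 and Itgam -0.51 in the last). Markers of neutrophils, T and NK cells, mast cells, dendritic cells and erythroid cells summed to at most 4.14 CPM per list in any library, and all 4 globin genes of the erythroid list were at 0. The 8 osteoclast markers, with Calcr at 0, summed to 142 to 160.3 CPM in DMSO, 146 to 164 in DSHN, 120.1 to 139.9 in GW3965 and 118 to 125 in the combination, and of the 5 tested 1, 4 and 3 fell in the treated groups. The B cell transcript Ighm, an immunoglobulin heavy chain, rose from 32.1 ± 11.4 CPM in DMSO to 58.0 ± 3.77 with DSHN, 73.2 ± 11.1 with GW3965 and 66.0 ± 12.4 with both (SD, n = 5; log2 changes 0.84, 1.18 and 1.03, edgeR adjusted p 0.000234, 8.95e-07 and 3.09e-06). Fibroblast and stromal markers were present: their summed level was 2398 to 3027 CPM in DMSO, 2557 to 3235 in DSHN, 2673 to 3504 in GW3965 and 1999 to 2433 in the combination. Of these 7 markers, 5 passed the expression filter, and Dcn and Lum did not. Against DMSO 0 of the 5 were called with DSHN, 2 were higher with GW3965 and 5 lower with both. Of all tested genes 14.1% were higher and 14.8% lower with DSHN, 23.6% and 23% with GW3965, and 31.9% and 32.9% with both. The marker values of this paragraph are as counted, with no length correction. In these bulk libraries fewer cells of a type and less RNA per cell cannot be told apart, and the part of these shifts in stromal, osteoclast, macrophage and B cell transcripts in the results below was not tested.

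One property of the libraries bears on every comparison with the combination. Across tested genes, the slope of centred log2 CPM on log2 exon length was -0.124 to -0.0943 in the 5 combination libraries and 0.00566 to 0.0630 in the other 15. The mean slope of -0.113 in the combination differed from 0.0450 in DMSO, 0.0341 in DSHN and 0.0340 in GW3965, each with an exact two-sided permutation p of 0.00794, the smallest that 5 against 5 allow (0.00794 after adjustment over the 3 comparisons). Short genes thus had relatively higher counts in the combination. Trem2, Tyrobp, Spp1, Cd9, Cd63 and Lgals3 are short (575 exon bases for Tyrobp to 1658 for Spp1, against a median of 3758 over tested genes), while Gpnmb has 3823. Differences of the 7 genes that involve the combination are therefore given as counted and again after a correction that removes each library's trend with exon length. The trend goes with the group, so a treatment effect on short genes and a technical one cannot be told apart.

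**Figure D1:**
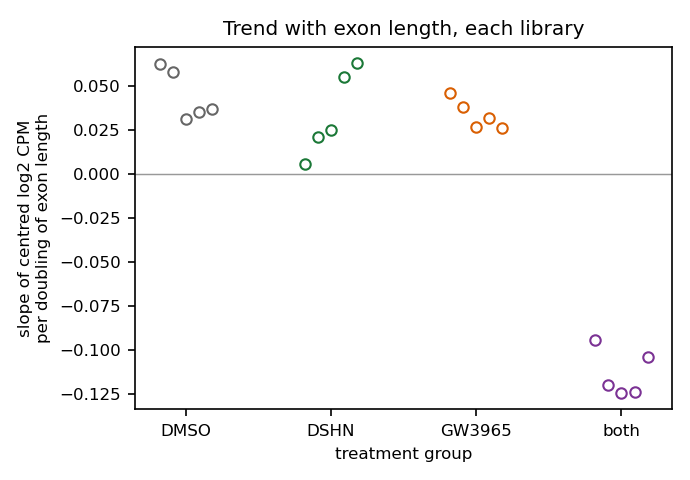
Slope of centred log2 CPM per doubling of exon length in each library (y axis) by treatment group (x axis; "both" is DSHN plus GW3965), 5 circles per group. The combination libraries lie between -0.124 and -0.0943, and the other 15 above 0.

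In DMSO-treated macrophages these transcripts were among the abundant ones. Gpnmb stood highest per exon length, at 1473 ± 34.6 RPKM (SD, n = 5), rank 16 of 13307 tested genes, followed by Lgals3 at 1232 ± 38.8 RPKM (rank 20). Spp1 at 828.8 ± 71.6 RPKM (rank 33) and Tyrobp at 769 ± 22.2 RPKM (rank 40) came next, and their library ranges overlapped. Trem2 at 309 ± 8.82, Cd63 at 291 ± 7.03 and Cd9 at 268 ± 11.1 RPKM formed the lower group (ranks 159, 173 and 184). Trem2 and Cd63 met at the edges of their ranges, and the remaining neighbours in this order did not overlap. The 7 genes together took 1.02% to 1.16% of all counts in each library.

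**Figure D2:**
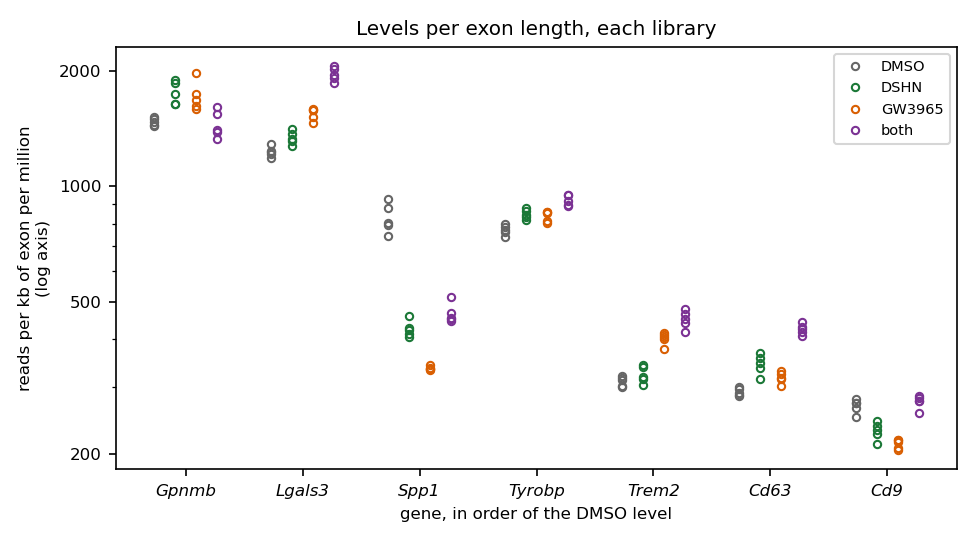
RPKM (log axis) for each gene, in order of the DMSO level (x axis), with 5 circles per treatment group ("both" is DSHN plus GW3965). Gpnmb and Lgals3 lie highest in DMSO, and Spp1 is the gene whose treated libraries lie farthest below its DMSO libraries.

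Against DMSO, DSHN alone raised Tyrobp, Gpnmb, Cd63 and Lgals3 and lowered Spp1 and Cd9, while Trem2 did not pass the test. That is 4 genes higher and 2 lower of 7, where 28.9% of all tested genes were called (14.1% higher and 14.8% lower). GW3965 alone raised Trem2, Tyrobp, Gpnmb, Cd63 and Lgals3 and lowered Spp1 and Cd9, so that all 7 were called against 46.5% of tested genes (23.6% higher and 23% lower). The combination raised Trem2, Tyrobp, Cd63 and Lgals3 and lowered Spp1, and neither Gpnmb nor Cd9 passed, 5 of 7 against 64.8% of tested genes (31.9% higher and 32.9% lower). After the length correction the combination still raised Trem2, Cd63 and Lgals3 and lowered Spp1, but Tyrobp and Cd9 were lower than in DMSO (6 of 7 called, against 58.4% of tested genes). The 3 comparisons share the same DMSO libraries. Their median absolute log2 change over the 7 genes was 0.22, 0.33 and 0.54, and over all tested genes 0.12, 0.17 and 0.28.

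**Figure D3:**
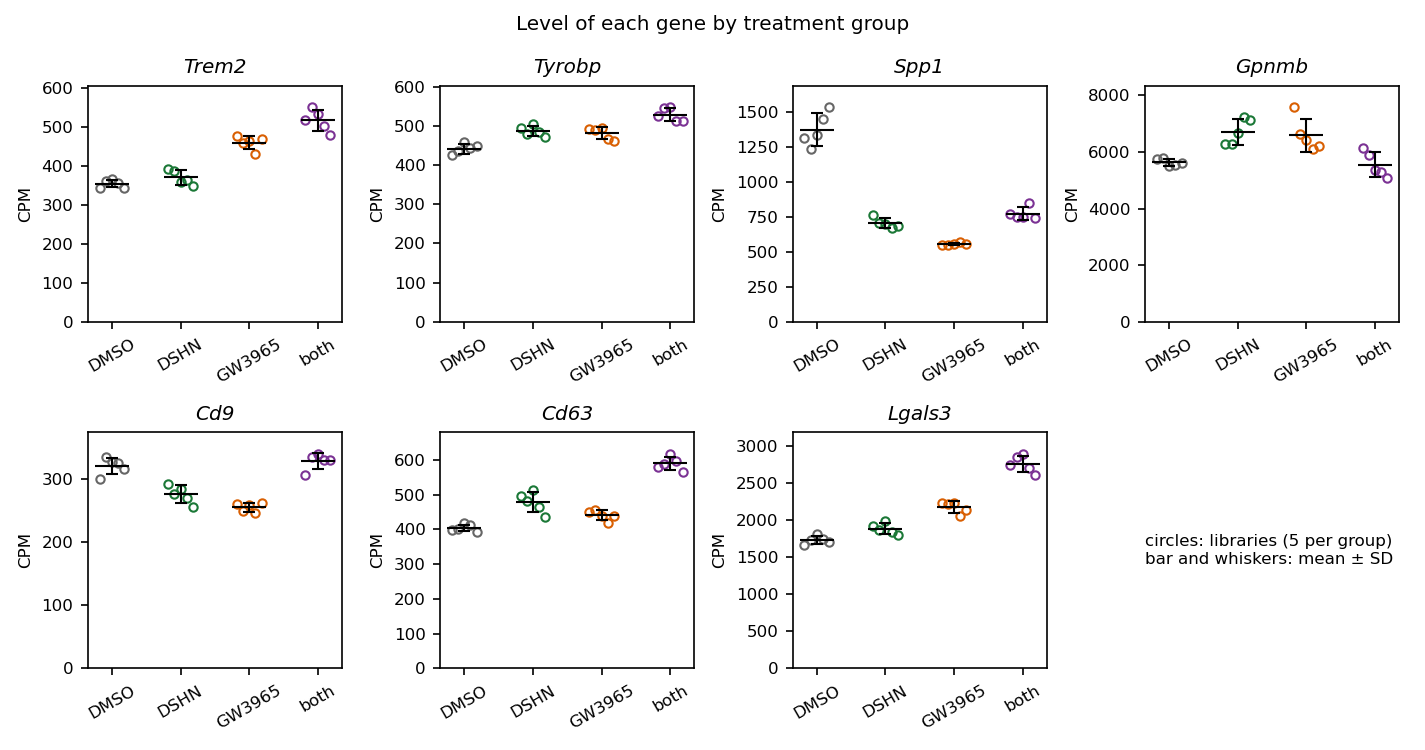
CPM (y axis, from 0) of each gene in each library by treatment group (x axis; "both" is DSHN plus GW3965), with 5 circles per group and mean ± SD. Spp1 fell from 1234 to 1533 CPM in DMSO to 552 to 568 CPM in GW3965, Trem2 and Lgals3 were highest in the combination, and Gpnmb was highest in the single treatments.

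Trem2, the receptor, read 344, 362, 366, 357 and 344 CPM in the 5 DMSO libraries and between 348 and 392 CPM under DSHN (392, 388, 360, 364 and 348). It read 476, 459, 463, 432 and 469 CPM with GW3965 and 517, 550, 534, 503 and 479 CPM with both. The DMSO and DSHN ranges overlapped, every GW3965 library lay above both, and every combination library lay above every GW3965 library. The rise with GW3965 was 0.37 on the log2 scale (SE 0.04, edgeR adjusted p 1.31e-08), and with DSHN the difference was 0.06 with a 95% interval of -0.02 to 0.14 (adjusted p 0.245). The combination stood 0.54 above DMSO (SE 0.04, edgeR adjusted p 4.97e-12), and 0.23 with the length correction (adjusted p 8.89e-06). Against GW3965 alone it was 0.17 higher as counted (edgeR adjusted p 0.000561) and 0.11 lower with the correction (log2 difference -0.11, adjusted p 0.018), so whether DSHN added to GW3965 raised or lowered Trem2 turned on that correction. Trem2 was also higher with GW3965 than with DSHN, by 0.31 (SE 0.04, edgeR adjusted p 9.64e-07), with no combination library in that comparison.

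Tyrobp, the adaptor of TREM2 and of several other receptors, changed little. It read 424, 436, 458, 443 and 449.5 CPM in DMSO, 471 to 504 CPM with DSHN, 462 to 494 CPM with GW3965 and 511 to 547 CPM with both. No DSHN, GW3965 or combination library fell in the DMSO range. The rises as counted were 0.14 with DSHN (edgeR adjusted p 0.0014), 0.12 with GW3965 (adjusted p 0.00242) and 0.26 with both (adjusted p 6.89e-08). Scaled by total counts alone, the rise with GW3965 was 0.06 and did not pass (adjusted p 0.0772). Tyrobp is the shortest of the 7 genes, and only 1.68% of tested genes have fewer exon bases. With the length correction the first 2 differences were 0.09 (adjusted p 0.0799) and 0.04 (adjusted p 0.402), neither passing the test, and the combination stood below DMSO (-0.20, adjusted p 3.93e-05).

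Osteopontin had the largest change of the 7 genes. Spp1 read 1317, 1234, 1333, 1454 and 1533 CPM in DMSO, 762, 710, 701, 672 and 685 CPM with DSHN, 553, 552, 554, 568 and 556 CPM with GW3965, and 774, 747, 750, 851 and 740 CPM with both. The DMSO libraries lay above all others, and the GW3965 libraries lay below all others. Spp1 fell by 0.96 with DSHN (SE 0.05, edgeR adjusted p 8.23e-14), by 1.30 with GW3965 (SE 0.05, adjusted p 1.09e-17) and by 0.83 with both (SE 0.05, adjusted p 8.91e-14), which are 0.514, 0.405 and 0.562 times the DMSO level. Of the 5 osteoclast markers tested, 4 were lower with GW3965 and 3 with both, where 23% and 32.9% of tested genes were lower. Mmp9 fell with GW3965 (-0.76, edgeR adjusted p 5.75e-08) and with both (-0.91 as counted). So did Dcstamp (-1.69, edgeR adjusted p 2.38e-06, and -1.89 as counted), which was scarce, at 1.26 CPM in DMSO and 0.38 with GW3965. Nfatc1 read 82.6 ± 7.0 CPM in DMSO and 85.6 ± 4.52 with GW3965 (SD, n = 5). The part of these markers in the fall of Spp1 was not tested. Corrected for length, the Spp1 difference between both compounds and DMSO was -1.05 (adjusted p 1.28e-16). The combination thus held more Spp1 than GW3965 alone, by 0.47 as counted (SE 0.05, edgeR adjusted p 5.34e-09) and 0.27 corrected (adjusted p 6.84e-06). Against DSHN alone the combination was 0.13 higher as counted (edgeR adjusted p 0.0218), with overlapping libraries, and -0.07 with the correction (adjusted p 0.198). The call against DSHN as counted was also lost without DSHN replicate 4 (0.12, adjusted p 0.0535) and without combination replicate 4 (0.10, adjusted p 0.0803).

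Gpnmb, whose protein product is found in lysosomes and on the surface of foamy macrophages, rose with either compound and not with both. It read 5742, 5791, 5489, 5523 and 5612 CPM in DMSO, 6266, 6280.1, 6655, 7223 and 7121 CPM after DSHN, and 7572, 6645, 6429.8, 6095 and 6198 CPM with GW3965. With both it read 6156, 5901, 5358, 5292 and 5073 CPM, a range that spans the DMSO values. The rises were 0.25 with DSHN (SE 0.06, edgeR adjusted p 0.00106) and 0.23 with GW3965 (SE 0.06, adjusted p 0.00146), both without overlap. The combination differed from DMSO by -0.02, with a 95% interval of -0.13 to 0.09 (adjusted p 0.77), and by 0.03 (-0.08 to 0.15) with the length correction. It lay below DSHN alone by 0.27 (log2 difference -0.27, edgeR adjusted p 0.000153) and below GW3965 alone (-0.25, adjusted p 0.000465), and with the correction by -0.23 and -0.21 (adjusted p 0.00107 and 0.00229). Gpnmb is near the median exon length, with 50.9% of tested genes shorter, and the correction moved it least.

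The tetraspanins went different ways. Cd9 fell with each compound alone, and Cd63 rose in every treated group. Cd9 read 299, 334, 326, 326 and 316 CPM in DMSO, 255 to 292 CPM with DSHN, 246 to 261 CPM with GW3965, and 307, 335, 339, 330.0 and 330.2 CPM with both. Each single treatment lay below the DMSO range, and the combination overlapped it. The falls were -0.22 with DSHN (SE 0.04, edgeR adjusted p 7.99e-05) and -0.33 with GW3965 (SE 0.04, adjusted p 6.04e-08). The combination differed from DMSO by 0.04 as counted (95% interval -0.04 to 0.11, edgeR adjusted p 0.411) and by -0.27 with the length correction (adjusted p 5.08e-08), so a difference from DMSO was called only with the correction.

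Cd63 read 393 to 417 CPM in DMSO, 436 to 512 CPM with DSHN, 419 to 457 CPM with GW3965, and 581, 589, 617, 595 and 565 CPM with both. The DMSO libraries lay below all others and the combination libraries above all others, while DSHN and GW3965 overlapped. The rises were 0.24 with DSHN (SE 0.04, edgeR adjusted p 1.55e-05), 0.12 with GW3965 (SE 0.04, adjusted p 0.0076) and 0.54 with both (SE 0.04, adjusted p 1.68e-12), the last 0.28 with the length correction (adjusted p 2.58e-08). Scaled by total counts alone, without TMM, the rise with GW3965 was 0.07 and did not pass (adjusted p 0.142). The combination exceeded GW3965 alone with the correction as well (0.42 as counted and 0.18 corrected, edgeR adjusted p 4.56e-10 and 2.86e-05). Against DSHN alone it was 0.30 higher as counted (edgeR adjusted p 1e-07), but 0.06 corrected, which did not pass (adjusted p 0.0983).

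Lgals3, the galectin-3 gene, rose in every treated group. It read 1666, 1732, 1814, 1741 and 1706 CPM in DMSO, 1927, 1868, 1985, 1847 and 1793 CPM with DSHN, 2238, 2219, 2229.6, 2053 and 2132 CPM with GW3965, and 2742, 2848, 2894, 2698 and 2616 CPM with both. DMSO and DSHN overlapped in single libraries, GW3965 lay above both and the combination above all. The rises were 0.12 with DSHN (SE 0.04, edgeR adjusted p 0.0114), 0.33 with GW3965 (SE 0.04, adjusted p 2.75e-08) and 0.67 with both (SE 0.04, adjusted p 2.26e-14). After the correction they were 0.10, 0.30 and 0.41, and all passed (adjusted p 0.0278, 2.65e-08 and 6.93e-11). The combination also exceeded GW3965 alone, by 0.34 as counted and 0.11 corrected (edgeR adjusted p 8.56e-09 and 0.00858).

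Without the combination libraries, the compounds alone could be set side by side. GW3965 gave more Trem2 and Lgals3 than DSHN, and less Spp1, Cd9 and Cd63, 5 of 7 called (2 higher and 3 lower) against 17.1% of tested genes (8.3% higher and 8.82% lower). Spp1 was lower by 0.34 (log2 difference -0.34, edgeR adjusted p 5.03e-06) and Lgals3 higher by 0.21 (adjusted p 0.00011). The differences in Cd9 (-0.11, adjusted p 0.0375) and Cd63 (-0.12, adjusted p 0.0238) came from overlapping libraries, and both were lost when the fit held only these 10 libraries (edgeR adjusted p 0.055 and 0.0608). They were lost without single libraries as well: Cd9 without DSHN replicates 1, 2 or 3 or GW3965 replicates 2, 3 or 4, and Cd63 without DSHN replicates 1 or 3 or GW3965 replicate 4. Tyrobp (-0.02, 95% interval -0.08 to 0.05) and Gpnmb (-0.03, -0.14 to 0.09) did not pass.

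Adding DSHN to GW3965 moved all 7 genes as counted, 6 higher and only Gpnmb lower, where 57.8% of tested genes were called (28.3% higher and 29.5% lower). With the length correction all 7 passed again, against 47.3% of tested genes, but Trem2 and Tyrobp were then lower, so Spp1, Cd9, Cd63 and Lgals3 were higher and 3 genes lower. Adding GW3965 to DSHN likewise moved 6 genes up and Gpnmb down, 7 of 7 against 58.1% (28.6% higher and 29.5% lower). With the correction 4 of 7 passed, against 46.4% of tested genes: Trem2 (0.20) and Lgals3 (0.31) higher, and Tyrobp (-0.28) and Gpnmb (-0.23) lower.

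**Figure D4:**
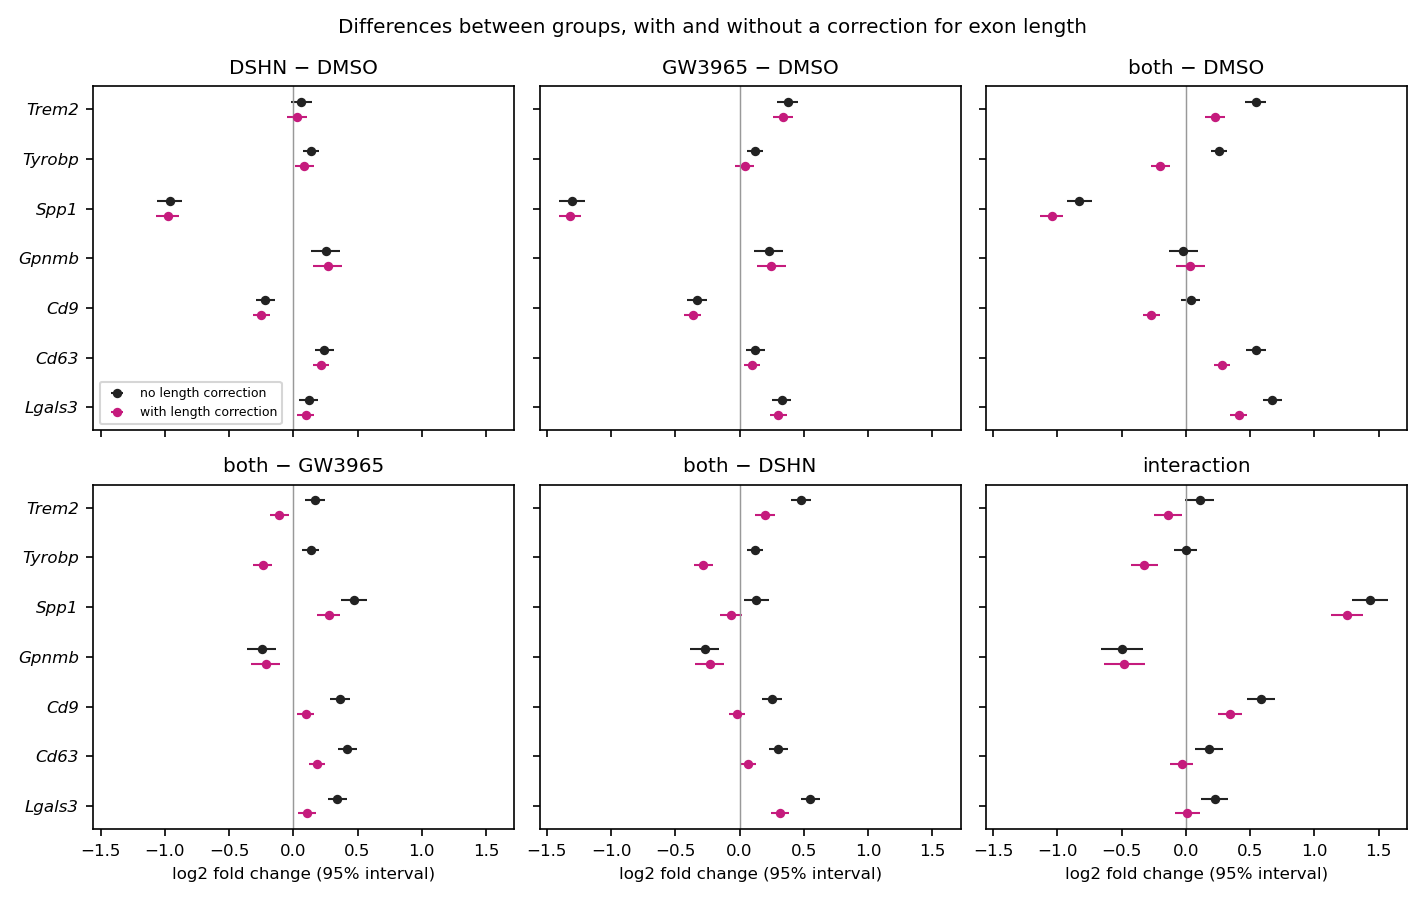
Log2 fold change with its 95% interval (x axis) of each gene (y axis) in 6 comparisons, as counted (black) and with the length correction (magenta); "both" is DSHN plus GW3965. The pairs of points lie close together for the single compounds, and in comparisons with the combination the short genes shift to lower values, with Tyrobp changing sign in all 3 differences from other groups.

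The interaction asked whether DSHN acted differently when GW3965 was present: it is the log2 change that DSHN made in the presence of GW3965 less the change it made alone. Spp1 had the largest value, 1.43 (SE 0.07, edgeR adjusted p 5.43e-14), since DSHN lowered it in the absence of GW3965 and the combination stood above GW3965 alone. Cd9 (0.58, SE 0.05, adjusted p 4.93e-09) had the same pattern, and Gpnmb the opposite one (-0.50, SE 0.08, adjusted p 9.6e-06), with a DSHN rise alone and a fall on top of GW3965. These 3 passed with the length correction too, at 1.25, 0.34 and -0.48 (edgeR adjusted p 8.04e-14, 1.07e-06 and 2.03e-05). Cd63 (0.18, adjusted p 0.00535) and Lgals3 (0.22, adjusted p 0.000639) passed as counted only, with corrected values of -0.03 and 0.01 (adjusted p 0.588 and 0.872). As counted 5 of 7 passed, 4 higher and 1 lower, against 50.2% of tested genes (23.7% higher and 26.5% lower), and with the correction 5 passed against 44.2%, now including Tyrobp (-0.32, adjusted p 1.61e-05) and Trem2 (-0.14, adjusted p 0.0361). As counted, Trem2 (0.11, adjusted p 0.112) and Tyrobp (0.00, 95% interval -0.09 to 0.09, adjusted p 0.969) did not pass. Trem2 passed as counted with scaling by total counts alone (0.18, adjusted p 0.00632), and without DSHN replicate 1 (adjusted p 0.0361), DSHN replicate 2 (0.0466) or combination replicate 5 (0.0263).

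Separation of the libraries, here as counted and with no length correction, can be read without a model. The 5 libraries of each group did not overlap for 5 of the 7 genes between DSHN and DMSO (18.6% of all tested genes), 7 between GW3965 and DMSO (32.1%), and 5 between the combination and DMSO (49.7%). Between the combination and GW3965, and between the combination and DSHN, 6 genes were separated (42.4% and 42.5% of tested genes). Between GW3965 and DSHN it was 3 genes, Trem2, Spp1 and Lgals3 (12.4%).

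The receptor chain around TREM2 was read from a list of 22 genes, all tested, Trem2 and Tyrobp included. With GW3965 9 rose and 8 fell, and with DSHN 5 rose and 3 fell, with list medians of 0.07 and 0.05 (0.01 and 0.00 over all tested genes). The shares called over all tested genes were 23.6% higher and 23% lower with GW3965, and 14.1% and 14.8% with DSHN. With both, 9 rose and 10 fell (8 and 9 with the length correction), where 31.9% and 32.9% of tested genes did (30.2% and 28.2% corrected). Against GW3965 alone the combination had 6 higher and 13 lower (2 and 13 corrected). Of all tested genes 28.3% were higher and 29.5% lower in that comparison, and 47.3% were called either way when corrected. Syk, the kinase recruited by DAP12, rose with GW3965 by 0.50 (SE 0.05, edgeR adjusted p 4.37e-09), from 318 ± 16.3 to 451 ± 31.1 CPM (SD, n = 5), and Pik3cd, a catalytic subunit of phosphoinositide 3-kinase, rose by 0.55 (adjusted p 3.84e-12). Malt1, a protease of the CARD9 and BCL10 complex, fell by 0.29 with DSHN, 0.41 with GW3965 and 0.79 with both (edgeR adjusted p 1.09e-05, 1.23e-08 and 5.65e-14), the last -0.60 corrected. With DSHN Pik3r1 rose by 0.22 (adjusted p 4.68e-06), and the phosphatase gene Ptpn6 fell by 0.21 (edgeR adjusted p 1.51e-05). In the combination Plcg2, the phospholipase downstream of SYK, fell by 0.69 against DMSO (edgeR adjusted p 8.86e-13) and by 0.60 with the length correction. Vav3, an exchange factor, fell by 0.60 against DMSO and by 0.44 corrected. Against GW3965 alone the combination had less Plcg2 (-0.54) and Pik3cd (-0.43), and more of the adaptor Lat2 (0.45), and the corrected values kept these signs (-0.47, -0.25 and 0.51).

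A list of other immune receptors, only some of which signal through DAP12, and of the rest of the TREM family had more falls than rises against DMSO. Of 16 tested genes of 18 listed, 9 fell and 1 rose with GW3965, 5 fell and 2 rose with DSHN, and 9 fell and 2 rose with both (11 and 1 corrected). The list medians, as counted only, were -0.42, -0.13 and -0.20. Of all tested genes 23%, 14.8% and 32.9% fell and 23.6%, 14.1% and 31.9% rose in these comparisons (28.2% and 30.2% in the last when corrected). Against GW3965 alone the combination had 7 higher and 3 lower as counted, where 28.3% and 29.5% of tested genes were. For the interaction 8 were higher and 1 lower as counted, where 23.7% and 26.5% of tested genes were. Trem1, an amplifier of inflammatory signalling, was scarce and fell from 4.67 ± 1.37 CPM in DMSO to 1.32 ± 0.292 with DSHN, 1.08 ± 0.516 with GW3965 and 1.41 ± 0.321 with both (SD, n = 5). Its log2 changes were -1.80, -2.07 and -1.73 (edgeR adjusted p 1.32e-06, 7.15e-08 and 3.39e-07), the last -1.69 corrected. Clec5a, a lectin receptor, fell by 0.95 with GW3965 (adjusted p 7.25e-11), and the combination held more of it than GW3965 alone (0.59 as counted and 0.62 corrected, edgeR adjusted p 3.1e-07 and 2.5e-07). Cd300ld fell in all 3 treatments (-0.22, -0.46 and -0.34, the last -0.43 corrected), and Fcgr1, a high-affinity IgG receptor, fell with DSHN (-0.50, edgeR adjusted p 5.59e-07). Itgb2, the β2 integrin chain, fell with both (-0.25, edgeR adjusted p 6.03e-06, and -0.27 corrected). Sirpb1c (0.37) and Pilrb1 (0.52) were higher with both than with GW3965 (edgeR adjusted p 7.61e-05 and 0.000406), though with the length correction Sirpb1c did not pass (0.18, adjusted p 0.0534).

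Most receptors of osteopontin fell against DMSO, as Spp1 did, but not in step with it. Of 9 genes, 6 fell and none rose with DSHN, 6 fell and 2 rose with GW3965, and 8 fell and none rose with both, as counted and corrected. The list medians, as counted only, were -0.27, -0.51 and -0.86. Of all tested genes 14.8%, 23% and 32.9% fell in these comparisons (28.2% in the last when corrected), and 14.1%, 23.6% and 31.9% rose (30.2% corrected). Cd44, a surface receptor for osteopontin and hyaluronan, went from 756 ± 48.2 CPM in DMSO to 561 ± 8.95 with DSHN, 481 ± 11.5 with GW3965 and 415 ± 15.2 with both (SD, n = 5; log2 changes -0.43, -0.65 and -0.86). The integrin chains Itgav (-0.44, -0.51 and -0.93) and Itga5 (-0.55, -0.58 and -0.998) fell in the same 3 comparisons, with edgeR adjusted p of at most 1.49e-08. With the length correction the falls in the combination were -0.69, -0.67 and -0.90. Itga4 and Itga9 were lower with both compounds than with GW3965 alone (-0.78 and -0.64 as counted, -0.50 and -0.44 corrected). In that comparison 8 of the 9 receptor genes were lower and 0 higher as counted, where 29.5% and 28.3% of tested genes were. Spp1 went the other way there (0.47 as counted, 0.27 corrected). With the correction Cd44 did not pass (-0.06, edgeR adjusted p 0.207), and Itga8 was higher (0.47, adjusted p 0.0415).

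Among tetraspanins, 20 of 22 were tested (Cd9 and Cd63 included): 6 rose and 3 fell with DSHN, 7 rose and 4 fell with GW3965, and 12 rose and 2 fell with both, or 8 and 4 with the length correction. Of all tested genes 14.1% rose and 14.8% fell with DSHN, 23.6% and 23% with GW3965, and 31.9% and 32.9% with both, or 30.2% and 28.2% corrected. Cd53, a leukocyte tetraspanin, rose by 0.31 with GW3965 and 0.41 with both (edgeR adjusted p 1.14e-09 and 2.5e-12, the latter 0.36 corrected). Tspan5, which guides the sheddase ADAM10, fell with each compound (-0.26 and -0.32, edgeR adjusted p 0.000283 and 9.96e-06). Tspan31 rose with both by 0.33 (0.17 corrected), and Tspan3 stood 0.25 above GW3965 as counted but did not pass corrected (0.06, adjusted p 0.123). Of 10 partner proteins of tetraspanins, 4 fell with DSHN, 6 with GW3965 and 8 with both (7 corrected), and 0, 0 and 1 rose (0 in the last when corrected). The shares over all tested genes that fell were 14.8%, 23% and 32.9% (28.2% in the last when corrected). Those that rose were 14.1%, 23.6% and 31.9% (30.2% corrected). Hbegf, a growth factor whose membrane form binds CD9, fell by 1.02 with either compound (edgeR adjusted p 2.8e-09 and 5.08e-10). Timp1, a protease inhibitor that binds CD63, fell by 0.75 and 0.81 (adjusted p 2.26e-09 and 8.96e-11), while Cd63 rose. Cd36, a scavenger receptor, fell with DSHN (-0.25, edgeR adjusted p 1.38e-05). Of the remaining partners, Itga6 (-0.63), Adam10 (-0.45) and Adam17 (-0.57) fell with both, and with the correction by -0.45, -0.33 and -0.47. Itgb1 was lower with both than with GW3965 (-0.21, edgeR adjusted p 1.04e-06, and -0.15 corrected).

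Galectins and their partners had 9 tested genes of 13, Lgals3 included. Of these 3 rose and 2 fell with either single compound, and 2 rose and 4 fell with both. Without Lgals3, 2 of 8 rose and 2 fell with either single compound, and 1 rose and 4 fell with both. Corrected, 3 of the 9 rose and 5 fell with both. Of all tested genes 28.9% were called with DSHN, 46.5% with GW3965 and 64.8% with both (58.4% corrected). Lgals8, another galectin that marks damaged vesicles, rose with DSHN by 0.18 (edgeR adjusted p 0.000586), and Trim16, a partner of galectin-3 in lysosome repair, rose by 0.31 with DSHN and 0.23 with GW3965 (adjusted p 0.00126 and 0.00688). Mgat5, the enzyme that builds branched glycans bound by galectin-3, fell by 0.20 with GW3965 and by 0.86 with both (edgeR adjusted p 0.00296 and 6.57e-13, the latter -0.65 corrected). Lgalsl fell with both (-0.36, edgeR adjusted p 2.75e-05, and -0.28 corrected), and Lgals9 was lower with both than with GW3965 (-0.51 as counted, -0.72 corrected).

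The MiT transcription factors, which drive lysosomal genes and Gpnmb, and the partners of GPNMB had 12 tested genes, Gpnmb included. In each single treatment 6 rose (5 of 11 without Gpnmb), and 2 fell with DSHN and 3 with GW3965. The shares over all tested genes were 14.1% and 23.6% higher and 14.8% and 23% lower. With both, 5 rose and 5 fell (5 and 3 corrected), where 31.9% and 32.9% of tested genes did (30.2% and 28.2% corrected). Tfec rose by 0.62 with DSHN (edgeR adjusted p 2.43e-08), from 28.0 ± 2.66 to 43.0 ± 1.61 CPM (SD, n = 5). Flcn, a negative regulator of TFEB and TFE3 at the lysosome, rose by 0.60 with DSHN and 0.80 with GW3965 (edgeR adjusted p 1.22e-07 and 1.33e-10). Sdc4, a syndecan that binds GPNMB, fell with GW3965 and with both (-0.59 and -0.40, edgeR adjusted p 4.78e-13 and 2.2e-10, the latter -0.45 corrected). Fnip1, the partner of folliculin, was lower with both than with GW3965 (-0.56 as counted, -0.35 corrected).

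**Figure D5:**
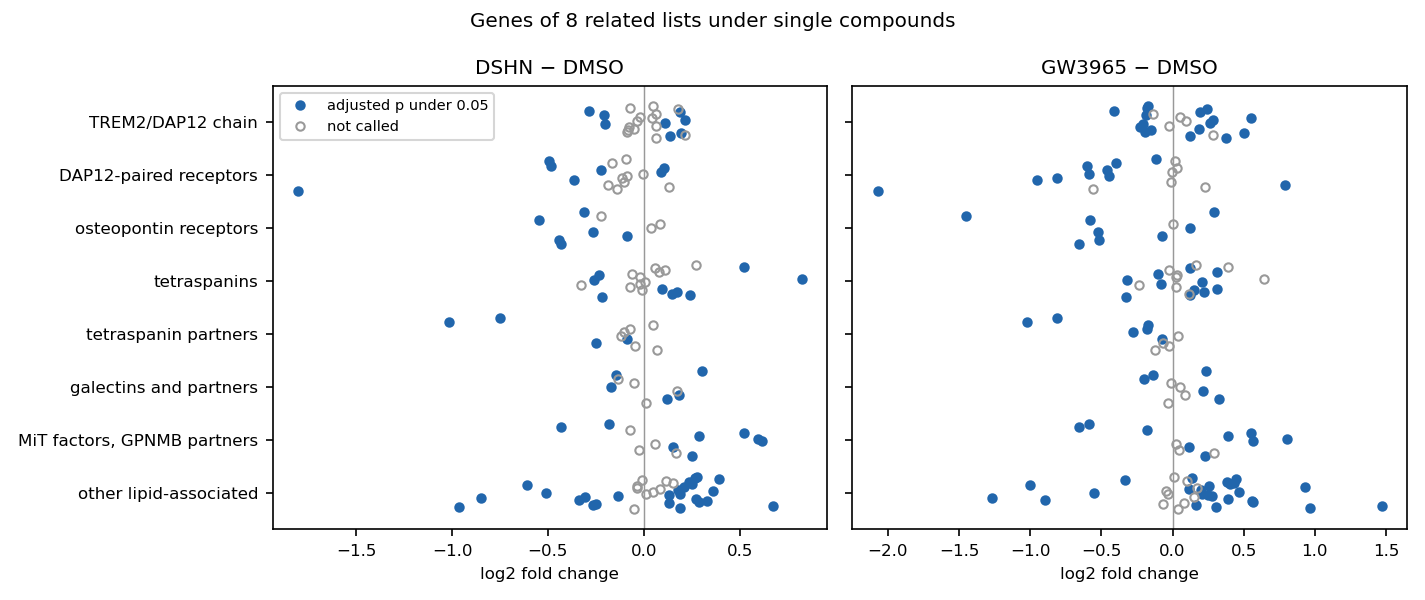
Log2 fold change (x axis) of each tested gene in 8 lists of related genes (y axis), for DSHN and for GW3965 against DMSO; filled points had an adjusted p under 0.05. Points of the osteopontin receptor list and of the list labelled "DAP12-paired receptors", which also holds receptors that do not use DAP12, lie mostly below 0 in both panels. Most filled points of the list of other lipid-associated genes lie above 0.

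A list of 35 other transcripts of lipid-associated and disease-associated macrophages had 34 tested genes. Of these 16 rose and 9 fell with DSHN, 20 rose and 5 fell with GW3965, and 21 rose and 7 fell with both (19 and 10 corrected). The list medians were 0.12, 0.19 and 0.27, all as counted and with no length correction. Of all tested genes 14.1% rose and 14.8% fell with DSHN, 23.6% and 23% with GW3965, and 31.9% and 32.9% with both (30.2% and 28.2% corrected). Apoe, the apolipoprotein of lipid efflux and a known LXR target, rose from 2261 ± 136 CPM to 3610.0 ± 133 with DSHN, 6266 ± 596 with GW3965 and 5754 ± 460.4 with both (SD, n = 5; log2 changes 0.67, 1.47 and 1.35, the last 1.26 corrected). Lpl, which hydrolyses lipoprotein triglycerides, fell by 0.96 with DSHN (edgeR adjusted p 1.33e-14), and stood 0.30 above DMSO with GW3965 (adjusted p 2e-06). The protease genes Mmp12 and Ctsl fell, Mmp12 by 0.61 with DSHN (edgeR adjusted p 8.97e-10) and Ctsl by 0.90 with GW3965 (adjusted p 8.53e-17). Ctsl was higher with both than with GW3965 (0.52 as counted, 0.53 corrected). Vat1 rose by 0.93 with GW3965 and 0.81 with both (0.75 corrected), and Fabp5, a fatty acid carrier, by 0.92 with both (0.56 corrected). Against GW3965 the combination held more of the chemokine Ccl6 (0.72 as counted, 0.49 corrected), while Cstb, a cathepsin inhibitor, was 0.43 higher as counted but did not pass corrected (0.06, adjusted p 0.0763).

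Over the 20 libraries, the log2 CPM of the 7 genes fell into no single pattern. Trem2 followed Lgals3 most closely (Pearson r 0.956) and Tyrobp followed Cd63 (0.923), whereas Gpnmb and Cd9 ran opposite (-0.788) and Spp1 and Gpnmb likewise (-0.577). These values describe 20 libraries that share treatment means and the length trend. Once group means were removed, Tyrobp and Lgals3 (0.912) and Cd63 and Lgals3 (0.850) still varied together, and Spp1 with Trem2 (-0.0284) did not. This step leaves the length trend within groups in place, where slopes also differed between libraries (0.00566 to 0.0630 in DSHN). Tyrobp, Cd63 and Lgals3 are short genes, and the part of that trend in their r was not tested. Among genes outside the 7, those most like Trem2 over the 20 libraries were Slc25a1 (0.982), Mdh1 (0.980) and Rac2 (0.978). Those most like Spp1 were Fos (0.979), Rgs1 (0.974) and Kcnn4 (0.974), and for Gpnmb they were Pdxk (0.933), Slc35a5 (0.930) and Wdr91 (0.927). For Tyrobp they were Bri3 (0.965), Lmo2 (0.963) and Akr1a1 (0.961), and for Cd9 Fxyd5 (0.952), S100a4 (0.952) and S100a6 (0.949). For Cd63 they were Ubxn1 (0.977), Ftl1 (0.973) and Fcer1g (0.973), and for Lgals3 Sub1 (0.987), Gpsm3 (0.985) and Dnase2a (0.984). With group means removed, r in these pairs ran from 0.6 (Cd9 with S100a6) to 0.885 (Trem2 with Rac2).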

How the data were processed

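RNA from 20 macrophage cultures (4 treatments, 5 replicates each) was made into stranded libraries, per the labels' protocols. The submitters' processing notes name STAR as aligner. Per the file headers, featureCounts v2.0.0 counted reads over exons of the GRCm39 RefSeq annotation, with no option for strand, so reads of either strand entered. The authors deposited raw counts per gene.

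Of 46318 genes, 44749 were named from a RefSeq table (GRCm38.p6), and 1569, with 0.474% of the counts, were not. Raw counts of the 13307 genes kept by filterByExpr entered the quasi-likelihood test of edgeR (4.0.16, R 4.3.3), with TMM factors and a mean for each of the 4 treatments. There were 7 contrasts: 6 differences between groups and the interaction. Adjustment followed Benjamini and Hochberg over all tested genes of a contrast, with calls under 0.05.

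The length correction subtracted, in each library, a spline (5 degrees of freedom) fitted to log2 CPM over log2 exon length. The other alternatives were DESeq2 1.42.0, voom in limma 3.58.1, scaling, filters, a replicate block, the compared groups only, and leaving out each library. The 7 genes and all lists were chosen with earlier results of these data known. Named from each list were up to 3 called genes of smallest adjusted p against DMSO and in the combination against GW3965, and as most alike the 3 genes of highest Pearson r with a mean of at least 5 CPM. Replicates differed beyond counting noise (chi-square per degree of freedom 2.468 to 13.27 over 40 pairs). The B cell marker list is not reported in full here.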

Additional observations from a re-analysis of the deposited data

Results flagged for a closer look

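Cd9 in the combination had 1 library far from the other 4 of its group: replicate 1 read 306.7 CPM, the lowest, where the others read 330.0 to 339 CPM. With 28 sets of a gene and a group looked at, chance alone flags about 5% of them. The DSHN effect with GW3965 differed from that without it for 5 genes by edgeR's interaction test. The log2 differences were 1.43 for Spp1, -0.50 for Gpnmb and 0.58 for Cd9, each past the threshold with the length correction too, and 0.18 for Cd63 and 0.22 for Lgals3, which did not pass with it. The stromal markers, lower in the combination, and the length trend moved with this group, and their part in these differences was not tested beyond that correction.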

How the results depend on the processing

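Of 49 values (7 genes in 7 contrasts), all kept direction and call under DESeq2, DESeq2 size factors, voom, no filter and the replicate block. For example, a replicate block left 7 genes called for GW3965 against DMSO. Deviations of same-numbered replicates had r of -0.205 to 0.247 over 30 pairs (median 0.0399, against -0.00916 for other numbers), with 10 over 0.1. Of 20 libraries 13 were closest to their own number, so same-numbered replicates often shared deviations. The labels state no pairing and not every pair passed 0.1, so the samples were not treated as paired. That threshold is no test of pairing, and whether same-numbered cultures share an origin was not tested. The length correction turned the sign for the combination against DMSO in Tyrobp (-0.199), Gpnmb (0.0336) and Cd9 (-0.268), against GW3965 in Trem2 (-0.108) and Tyrobp (-0.238), against DSHN in Tyrobp (-0.284), Spp1 (-0.0674) and Cd9 (-0.0197), and for the interaction in Trem2 (-0.137) and Cd63 (-0.0325). With the replicate block and length correction the same values, in this order, were -0.199, 0.0314, -0.268, -0.109, -0.238, -0.285, -0.0686, -0.0198, -0.138 and -0.0323. Both settings left 4 of 7 genes called for the combination against DSHN. The fit on the compared groups alone left 3 called for GW3965 against DSHN, and leaving out 1 library left 3 to 5 (3 without DSHN replicates 1 or 3 or GW3965 replicate 4). The Tyrobp interaction, near 0, was 0.0731 with total counts only, 0.00864 with the stricter filter and -0.0147 to 0.0227 leaving out 1 library. Gpnmb in the combination against DMSO was -0.0560 to 0.0130 leaving out 1 library. Of 980 values with 1 library left out, 950 kept direction and call. Scaling by total counts only moved the split of calls: 3136 higher and 3058 lower became 2267 and 4000 for GW3965 against DMSO, 1104 and 1174 became 768 and 1641 for GW3965 against DSHN, and 3154 and 3527 became 4069 and 2853 for the interaction. The cause of these changes was not tested. No count of the 7 genes was under 4634, so depth did not limit them.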
